A study of Mus musculus with 10 samples.

Results

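The genes described here make, recycle and use glutathione, the main small thiol of animal cells. They were chosen by gene symbol from the deposited table of dorsal root ganglion counts: Gclc, Gclm, Gss, Gsr, Gstm1, Gstm2, Gstm5, Gstp1, Gsta4 and Gstt1. These 10 symbols matched 11 of 40481 Ensembl gene IDs, because Gstp1 is listed under a pair of IDs. Dorsal root ganglia, which hold the cell bodies of sensory neurons beside the spinal cord, were taken from C57BL/6 mice. The 5 oxaliplatin libraries came from mice given 10 mg/kg oxaliplatin, a platinum drug that damages sensory nerves, and followed 8 weeks of treatment. The 5 vehicle libraries came from mice given vehicle. Only RNA that passed an integrity threshold of 8 was sequenced. No source used here states the dosing schedule or the age of the animals.

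Glutathione is built from glutamate, cysteine and glycine: glutamate-cysteine ligase, a pair of the catalytic subunit Gclc and the modifier subunit Gclm, makes the first and rate-limiting bond, and glutathione synthetase, Gss, adds glycine. Glutathione reductase, Gsr, uses NADPH to return oxidised glutathione to its thiol form. Glutathione transferases of the mu class (Gstm genes), pi class (Gstp1), alpha class (Gsta4) and theta class (Gstt1) join glutathione to reactive compounds or clear the products of lipid oxidation, and glutathione is known to bind platinum drugs. Many of these genes can be switched on by the transcription factor NRF2, which binds antioxidant response elements near their start sites.

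The libraries held 52963470 to 60984426 counts, and the mitochondrial share was 1.34 to 1.61% in oxaliplatin libraries and 1.39 to 1.76% in vehicle libraries. All 10 sensory neuron markers passed the filter on low counts, with summed levels of 17499 to 19682 CPM (counts scaled to 1000000 per library) after oxaliplatin and 19892 to 22345 CPM after vehicle. Oxaliplatin replicate 1 stood apart in fat cell markers, whose sum was 712 CPM there and 8.74 to 62.3 CPM in the other 9 libraries. The same library held 854 CPM of skeletal muscle markers, against 68.3 to 110 CPM in the other oxaliplatin libraries and 169 to 599 CPM in vehicle libraries. Plin4, a fat droplet protein, rose, and its groups did not overlap (2.02 to 20.9 CPM after oxaliplatin and 0.362 to 1.44 CPM after vehicle; edgeR adjusted p = 0.0382, and 0.0539 to 0.107 in 9 of the 10 fits that left out 1 library, all but the one without oxaliplatin replicate 2), and all 6 tested fat cell markers had a log2 fold change above 0. Oxaliplatin replicate 1 was the highest of the 10 libraries for each of these fat cell markers, and Plin4 alone passed an adjusted p of 0.05. Of the 10 neuron markers 1 fell (Nefl) and 0 rose, 4 had a log2 fold change above 0, and the median was -0.04. The neuron sums did not overlap between the groups. Without Nefl and Tubb3 they overlapped, at 7199 to 7509 CPM after oxaliplatin and 6883 to 7951 CPM after vehicle. These 2 genes were left out because they carry most of the difference, so that overlap is no test of neuron content. Tubb3 was at -0.20 ± 0.06 on the log2 scale (SE, edgeR adjusted p = 0.113). In whole ganglia, fewer cells of a type and less RNA per cell cannot be told apart.

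Of the 10 genes, 1 rose after oxaliplatin, Gstm1, and none fell (quasi-likelihood test of edgeR at an adjusted p below 0.05, by Benjamini-Hochberg over 18401 genes). Over all genes tested, 2.04% passed the same threshold, 1.27% higher and 0.772% lower (234 and 142 genes); without a composition factor the split was 303 higher and 99 lower. The 10% share among the glutathione genes is thus a single gene. The median log2 fold change was 0.0079 over the 10 genes and 0.0051 over all genes tested, with 5 of the 10 above 0 and 5 below. For 0 of the 10 did the oxaliplatin and vehicle libraries separate without overlap, against 4.02% of all genes tested (2.25% higher and 1.77% lower after oxaliplatin). At an unadjusted p below 0.05 there were 2 of 10, Gstm1 and Gstm2, against 16.3% of all genes.

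**Figure D1:**
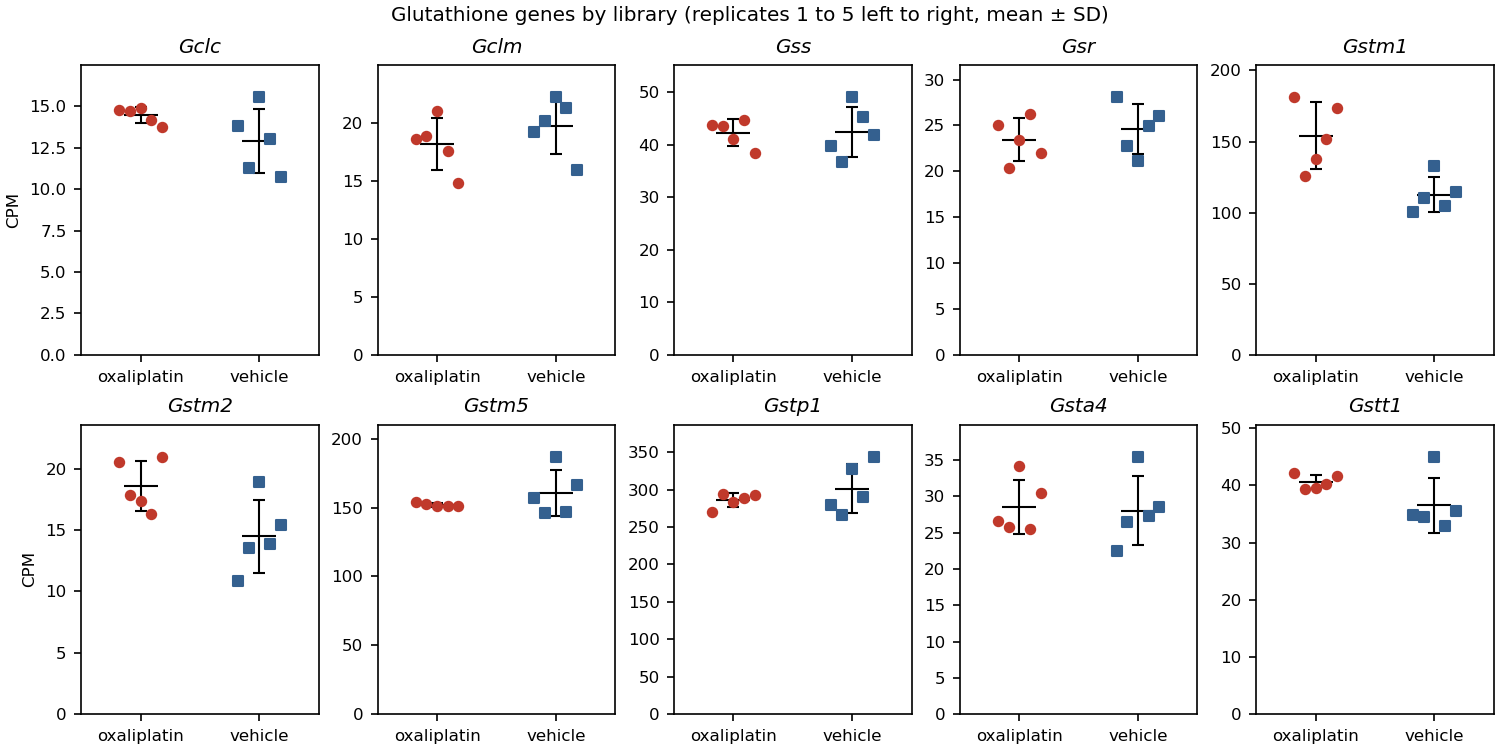
Level of each of the 10 genes in CPM (y axes start at 0), with 1 point per library (5 oxaliplatin, 5 vehicle) and black bars for the mean ± SD. Gstm1 lay at 126 to 181 CPM in oxaliplatin libraries and at 101 to 133 CPM in vehicle libraries, and for every gene at least 1 library of a group lay within the range of the other.

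Gstm1, Gstm2 and Gstm5 belong to one cluster of mu class genes on chromosome 3. In the GENCODE M21 annotation its order is Gstm5, Gstm7, Gstm6, Gstm3, Gstm2, Gstm1, Gstm4, with Gstm5 on the plus strand and the other 6 on the minus strand. RefSeq (GRCm38.p6) gave start-site sequences for 7 of the 10 genes; those of Gclc, Gsr and Gsta4 are not used here. The sequences printed here are those of the gene that rose, the neighbour nearest to it in the size of its difference, and the abundant neighbour at the far end of the cluster. Each runs from 250 bases before the start site to 50 after it, 5′ to 3′ on the gene's strand, with the antioxidant response element core TGACNNNGC and the TATA box TATAAA in capitals wherever either was found on either strand (the motifs did not overlap).
Gstm1 (chr3:108017769-108018068, minus strand): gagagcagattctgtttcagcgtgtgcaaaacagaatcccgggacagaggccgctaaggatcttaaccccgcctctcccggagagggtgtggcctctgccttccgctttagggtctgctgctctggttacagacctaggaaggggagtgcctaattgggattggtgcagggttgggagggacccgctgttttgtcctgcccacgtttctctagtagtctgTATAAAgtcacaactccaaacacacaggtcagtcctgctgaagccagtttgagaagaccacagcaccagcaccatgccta
Gstm2 (chr3:107986371-107986670, minus strand): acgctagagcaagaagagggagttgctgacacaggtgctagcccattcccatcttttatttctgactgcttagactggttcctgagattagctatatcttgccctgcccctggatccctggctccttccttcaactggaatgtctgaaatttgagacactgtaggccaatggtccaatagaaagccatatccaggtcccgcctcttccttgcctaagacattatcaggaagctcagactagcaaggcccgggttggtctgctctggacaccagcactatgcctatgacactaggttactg
Gstm5 (chr3:107895604-107895903, plus strand): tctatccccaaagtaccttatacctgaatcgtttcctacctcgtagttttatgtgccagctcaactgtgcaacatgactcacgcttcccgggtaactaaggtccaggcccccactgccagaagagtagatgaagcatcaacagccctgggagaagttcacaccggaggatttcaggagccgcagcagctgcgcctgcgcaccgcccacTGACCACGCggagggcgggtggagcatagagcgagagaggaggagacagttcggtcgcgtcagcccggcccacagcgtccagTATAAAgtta
The Gstm1 sequence holds a TATA box that begins 30 bases before the start site and no antioxidant response element core; a further Gstm1 start site in RefSeq has neither motif. The Gstm2 sequence has neither. The Gstm5 sequence holds 1 core, on its own strand, beginning 42 bases before the start site, and a TATAAA that lies after the start. Among the other genes, the core occurred once in Gclm and not in Gss, Gstp1 or Gstt1. Only the letters TGACNNNGC were searched, so a variant of the core would not have been found. Of all 32851 RefSeq sequences of this length, 12.4% hold the core and 13.6% hold TATAAA. A match is a description of the letters, and whether any factor bound these windows was not measured.

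Gstm1 (ENSMUSG00000058135), a mu class transferase that joins glutathione to electrophiles, had 181, 126, 138, 152 and 174 CPM in oxaliplatin replicates 1 to 5, against 101, 111, 133, 105 and 115 CPM in vehicle replicates 1 to 5. Oxaliplatin replicates 1, 3, 4 and 5 lay above every vehicle library, and oxaliplatin replicate 2 lay below vehicle replicate 3. The mean was 154 ± 23.3 CPM after oxaliplatin and 113 ± 12.5 CPM after vehicle (SD, n = 5 each). Gstm1 differed by 0.45 ± 0.10 (SE) on the log2 scale, 1.37-fold, with a 95% interval of 0.24 to 0.66 on the log2 scale (edgeR adjusted p = 0.0314). The log2 fold change stayed between 0.39 and 0.52 under every alternative listed in the processing account. The call was lost without oxaliplatin replicate 1 (edgeR adjusted p = 0.0691), 4 (0.0792) or 5 (0.0972), and without vehicle replicate 1 (0.0773), 2 (0.0617), 4 (0.0969) or 5 (0.0769). It was also lost with the replicate number as a block (edgeR adjusted p = 0.0780).

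Oxaliplatin replicate 1, which had the highest Gstm1 level, is also the library with the high fat cell markers, and without it the Gstm1 log2 fold change was 0.39. Without both this library and vehicle replicate 5, a fit chosen after seeing the data, the value was 0.39 (edgeR adjusted p = 0.109). Among markers of the cells a ganglion holds, 2 of 8 endothelial markers (Pecam1 and Cdh5), 2 of 8 pericyte markers (Kcnj8 and Abcc9), 1 of 8 fibroblast markers (Pdgfra), 1 of 10 Schwann cell markers (Drp2) and 1 of 6 tested fat cell markers (Plin4) rose beside Gstm1, and none of these lists had a member that fell. Over all genes tested 1.27% rose and 0.772% fell, so a list of 6 to 10 genes would rarely hold one that fell. Of 10 satellite glia markers Glul rose and Fabp7 fell. The summed levels of all 6 of these lists overlapped between the groups, at 114 to 125 CPM after oxaliplatin and 89.1 to 127 CPM after vehicle for the endothelial list, 159 to 229 and 135 to 172 CPM for the pericyte list, and 917 to 1159 and 778 to 1005.5 CPM for the fibroblast list. The fat cell sums were 18.9 to 712 CPM after oxaliplatin and 8.74 to 36.1 CPM after vehicle. The sums were 9062 to 11971 CPM after oxaliplatin and 8274 to 11058 CPM after vehicle for the Schwann cell list, and 4005 to 5359 and 4509 to 6416 CPM for the satellite glia list. No marker on these lists was at 0 counts in all libraries. Their part in the Gstm1 difference was not tested.

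Gstm2 (ENSMUSG00000040562), the neighbour of Gstm1 and a transferase of the same class, had 20.6, 17.9, 17.4, 16.3 and 20.98 CPM in oxaliplatin replicates 1 to 5. In vehicle replicates 1 to 5 it had 10.8, 13.5, 18.9, 13.8 and 15.4 CPM. All 5 oxaliplatin libraries lay above the vehicle median, and vehicle replicate 3 lay among them. Gstm2 differed by 0.36 ± 0.13 (SE) on the log2 scale, with a 95% interval of 0.09 to 0.63, and it did not pass the threshold (edgeR adjusted p = 0.162). Without vehicle replicate 3 it was 0.48 (edgeR adjusted p = 0.0495). It also ranged down to 0.27 when other libraries were left out.

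Gstm5 (ENSMUSG00000004032), the other abundant mu class gene, had 154, 153, 151, 151 and 151 CPM in oxaliplatin replicates 1 to 5, against 157, 146, 187, 147 and 166 CPM in vehicle replicates 1 to 5. The oxaliplatin libraries lay within 3 CPM of each other and inside the vehicle range. Gstm5 differed by -0.08 ± 0.07 (SE) on the log2 scale, with a 95% interval of -0.22 to 0.06 (edgeR adjusted p = 0.606). Of the cluster's other genes, Gstm7 was at 0.26 ± 0.10 (edgeR adjusted p = 0.209), Gstm3 at 0.05 ± 0.28, Gstm4 at -0.06 ± 0.09 and Gstm6 at -0.21 ± 0.11 on the log2 scale, none past the threshold. Every oxaliplatin library lay above every vehicle library for Gstm7, at 14.6 to 16.7 CPM after oxaliplatin and 9.90 to 14.2 CPM after vehicle. Gstm3 was the least abundant of the cluster, at 0.70 ± 0.18 CPM after oxaliplatin and 0.68 ± 0.11 CPM after vehicle (SD, n = 5 each), and its direction turned when oxaliplatin replicate 5 or vehicle replicate 1 was left out.

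**Figure D2:**
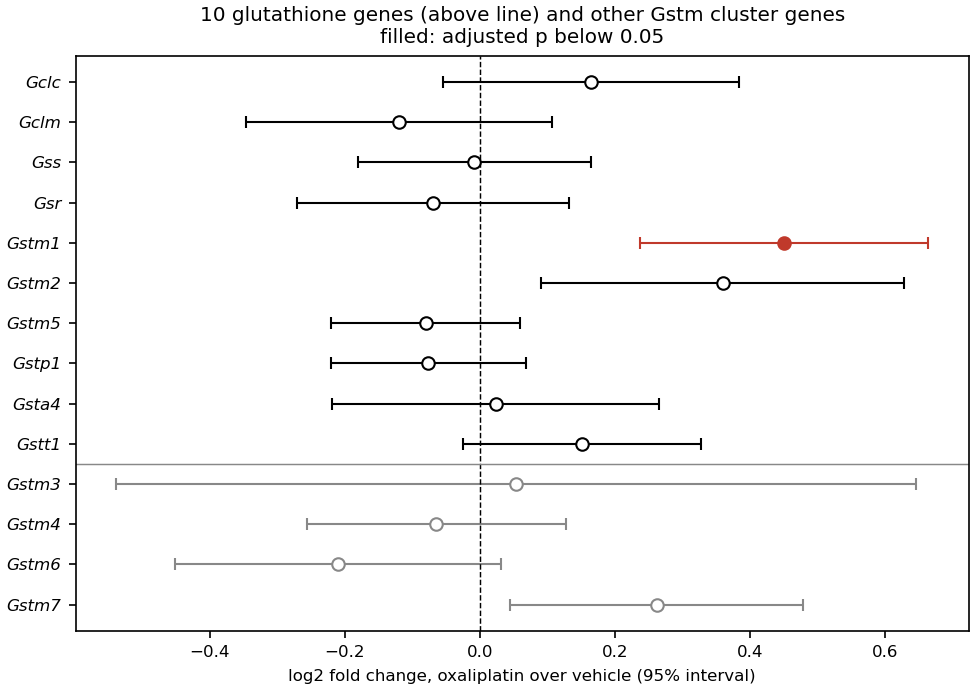
Log2 fold change of oxaliplatin over vehicle (x axis) with its 95% interval from the edgeR fit, for the 10 genes above the line and the other 4 Gstm genes below it (grey). Gstm1 at 0.45 is the filled point, past an adjusted p of 0.05; the intervals of Gstm2 and Gstm7 lie above 0 without passing that threshold.

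The ratio of raw Gstm1 to Gstm5 counts within a library does not depend on how libraries are scaled. It was 1.177, 0.825, 0.913, 1.0045 and 1.151 in oxaliplatin replicates 1 to 5, against 0.642, 0.756, 0.711, 0.716 and 0.689 in vehicle replicates 1 to 5. Every oxaliplatin library lay above every vehicle library. The mean log2 ratio was 0.52 higher after oxaliplatin, or 1.43-fold. When single libraries were left out the difference was 0.46 to 0.59. The pair was chosen after its values were seen, so the ratio is a description and carries no test.

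Of the ratios of Gstm1 to the 6 other genes of the cluster, those to Gstm4, Gstm5 and Gstm6 separated the groups without overlap, and those to Gstm2, Gstm3 and Gstm7 did not. The Gstm1 to Gstm4 ratio was 8.68 to 12.7 after oxaliplatin and 6.38 to 7.93 after vehicle, and the Gstm1 to Gstm6 ratio 12.5 to 19.3 and 8.30 to 10.8. The Gstm1 to Gstm2 ratio was 8.28 ± 0.86 after oxaliplatin and 7.90 ± 0.88 after vehicle (SD, n = 5 each), a difference smaller than its spread. These genes are close copies in part. Of the 50-base stretches in annotated Gstm1 transcripts, 18.9% also occur in another gene (Gstm2, Gstm3 and pseudogenes), and for Gstm2 the share was 5.65%, while Gstm5 and Gstm4 shared none. No source used here says how the authors' counting placed reads that match more than 1 gene, and the split of reads between Gstm1, Gstm2 and Gstm3 is therefore uncertain.

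**Figure D3:**
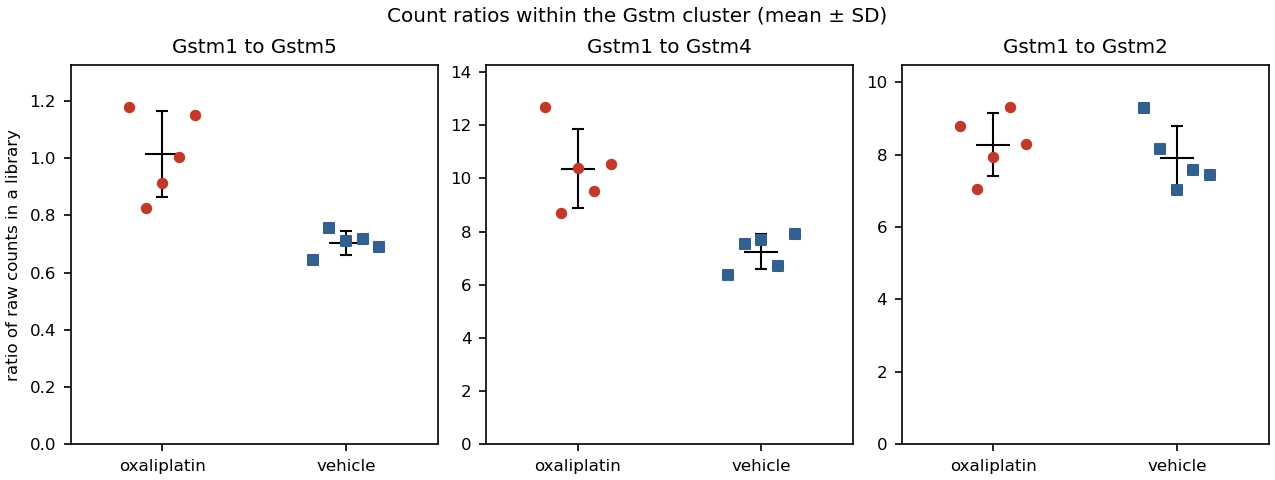
Ratio of raw counts of Gstm1 to Gstm5, Gstm4 and Gstm2 in each library (y axes start at 0), 5 oxaliplatin and 5 vehicle libraries, with the mean ± SD. The ratio to Gstm5 was 0.825 to 1.18 after oxaliplatin and 0.642 to 0.756 after vehicle, while the ratio to Gstm2 overlapped between the groups.

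The genes of glutathione synthesis and recycling did not pass the threshold. Gclc (ENSMUSG00000032350), the catalytic subunit, had 14.8, 14.7, 14.9, 14.1 and 13.7 CPM in oxaliplatin replicates 1 to 5, against 13.8, 11.3, 15.5, 13.0 and 10.8 CPM in vehicle replicates 1 to 5. All 5 oxaliplatin libraries lay above the vehicle median and inside the vehicle range, and the log2 fold change was 0.17 ± 0.10 (SE) with a 95% interval of -0.05 to 0.38 (edgeR adjusted p = 0.465). Gclm (ENSMUSG00000028124), the subunit that raises the activity of Gclc, had 18.6, 18.9, 20.96, 17.6 and 14.8 CPM after oxaliplatin and 19.2, 20.1, 22.2, 21.2 and 15.9 CPM after vehicle. Replicate 5 was the lowest of each group, and the log2 fold change was -0.12 ± 0.11 with a 95% interval of -0.35 to 0.11 (edgeR adjusted p = 0.637).

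Gss (ENSMUSG00000027610), which adds glycine, had 43.7, 43.5, 41.1, 44.8 and 38.4 CPM in oxaliplatin replicates 1 to 5, against 39.8, 36.8, 49.0, 45.3 and 41.8 CPM in vehicle replicates 1 to 5. All its oxaliplatin libraries lay inside the vehicle range, and Gss averaged 42.3 ± 2.57 CPM after oxaliplatin and 42.5 ± 4.76 CPM after vehicle (SD, n = 5 each). Its log2 fold change was -0.01 ± 0.08 (SE), and its 95% interval runs from 0.883-fold to 1.12-fold (edgeR adjusted p = 0.978). Gsr (ENSMUSG00000031584), which restores reduced glutathione, had 25.1, 20.4, 23.4, 26.3 and 22.0 CPM after oxaliplatin and 28.1, 22.8, 21.1, 25.0 and 26 CPM after vehicle. Its highest library was vehicle replicate 1 and its lowest oxaliplatin replicate 2. Gsr averaged 23.4 ± 2.35 CPM after oxaliplatin and 24.6 ± 2.71 CPM after vehicle, a log2 fold change of -0.07 ± 0.10 with an interval of 0.829-fold to 1.10-fold (edgeR adjusted p = 0.791). For these 4 genes the fitted intervals hold no rise beyond 1.31-fold, the upper bound for Gclc, and no fall beyond 0.786-fold, the lower bound for Gclm. Gss exons overlap Acss2 and the antisense genes Gssos1 and Gssos2 on the other strand by 5.44 to 6.68% of their bases, and strand was not stated. Acss2 was about as abundant as Gss, at 42.5 to 52.7 CPM after oxaliplatin and 46.0 to 58.2 CPM after vehicle, a log2 fold change of -0.16 ± 0.08 (SE; edgeR adjusted p = 0.312), while Gssos1 and Gssos2 stayed at or below 0.21 CPM in every library. Gstm5 had the largest overlap of the 10 genes, 13.9% of its exon bases with the antisense gene 4933431E20Rik, which was at 18.2 to 22.1 CPM after oxaliplatin and 15.8 to 22.4 CPM after vehicle.

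Among the transferases of other classes, Gstp1 (ENSMUSG00000060803), the pi class enzyme, was the most abundant, with 270, 295, 284, 289 and 292 CPM in oxaliplatin replicates 1 to 5 and 280, 266, 328, 290 and 344 CPM in vehicle replicates 1 to 5. The oxaliplatin values lay inside the vehicle range, and the log2 fold change was -0.08 ± 0.07 (SE; edgeR adjusted p = 0.638). In the Gstp1 transcripts, 33.7% of 50-base stretches also occur in Gstp2 or a Gstp pseudogene. Gstp2 itself was at 8.21 ± 0.68 CPM after oxaliplatin and 8.00 ± 0.97 CPM after vehicle (SD, n = 5 each). The second Gstp1 ID (ENSMUSG00000097830) had 0 counts in all 10 libraries, which allows up to 0.0492 to 0.0566 CPM at 3 counts per library.

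Gstt1 (ENSMUSG00000001663), the theta class enzyme, had 42.1, 39.3, 39.5, 40.2 and 41.7 CPM in oxaliplatin replicates 1 to 5, against 34.8, 34.5, 45.01, 32.9 and 35.4 CPM in vehicle replicates 1 to 5. The oxaliplatin libraries lay above 4 of the 5 vehicle libraries and below vehicle replicate 3. Gstt1 differed by 0.15 ± 0.08 on the log2 scale (SE; edgeR adjusted p = 0.390), and without vehicle replicate 3 it was 0.24 (edgeR adjusted p = 0.0760). Gsta4 (ENSMUSG00000032348), an alpha class enzyme that clears the lipid aldehyde 4-hydroxynonenal, had 26.6, 25.7, 34.2, 25.5 and 30.5 CPM after oxaliplatin and 22.4, 26.4, 35.5, 27.4 and 28.5 CPM after vehicle. Replicate 3 was the highest of each group, and the log2 fold change of Gsta4 was 0.02 ± 0.11 with a 95% interval of -0.22 to 0.27 (edgeR adjusted p = 0.952). Its sign turned without oxaliplatin replicate 3 or 5 or vehicle replicate 1.

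Vehicle replicate 3 was the highest vehicle library for 8 of the 10 genes, all but Gsr and Gstp1, and the lowest for Gsr. No oxaliplatin library was the highest of its group for more than 3 of the 10 genes. The spread of some genes was narrow after oxaliplatin: the coefficient of variation was 0.807% for Gstm5, 3.39% for Gclc and 3.13% for Gstt1 after oxaliplatin, against 10.5%, 15.0% and 13.3% after vehicle. For Gstm1 it was 15.1% after oxaliplatin and 11.1% after vehicle. Gstm5 had 8474 to 9362 counts per oxaliplatin library, where counting error alone is expected to give a spread no smaller than 0.807%. Vehicle replicate 3, at 187 CPM for Gstm5 and 45.01 CPM for Gstt1, widened the vehicle spread of both genes.

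**Figure D4:**
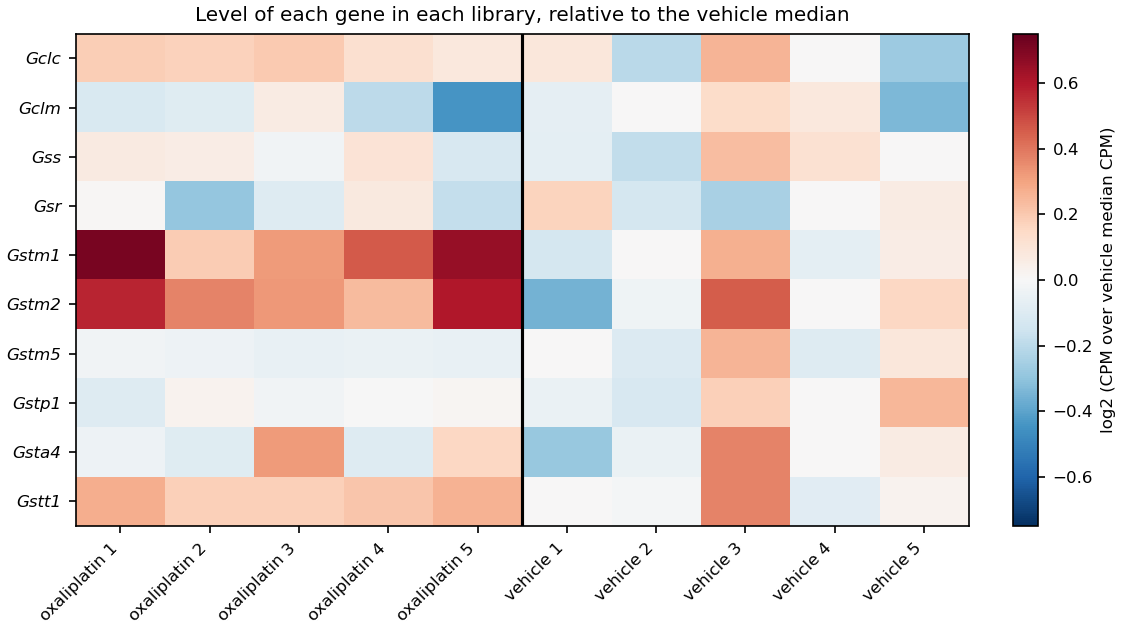
Level of each of the 10 genes (rows) in each of the 10 libraries (columns, oxaliplatin left of the black line and vehicle right of it), as log2 of its CPM over the median vehicle CPM; red is higher and blue lower. The Gstm1 and Gstm2 rows are above the vehicle median in all 5 oxaliplatin libraries, and vehicle replicate 3 is the highest vehicle library for 8 of the 10 genes.

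Levels between genes were compared as CPM per kilobase of annotated exon. In vehicle libraries Gstp1 was highest at 195 ± 21.3 CPM per kilobase, followed by Gstm5 at 126 ± 13.3 and Gstm1 at 76.6 ± 8.47 (SD, n = 5 each), with no overlap of libraries between neighbours. Gstt1 at 23.9 ± 3.17 and Gsta4 at 22.2 ± 3.75 overlapped, as did Gsr at 8.93 ± 0.98 with Gstm2 at 8.64 ± 1.77, and Gstm2 with Gss at 7.19 ± 0.81. Gclc at 3.42 ± 0.51 and Gclm at 3.14 ± 0.38 CPM per kilobase were lowest and overlapped. After oxaliplatin Gstm1 was at 105 ± 15.8 CPM per kilobase and Gstm5 at 119 ± 0.96, and the libraries of this pair overlapped. Gstm2, at 11.1 ± 1.22 after oxaliplatin, was then above Gsr, at 8.51 ± 0.85, in every library.

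After the group means were subtracted, the genes whose log2 CPM followed each glutathione gene most closely over the 10 libraries were searched among 12274 others. For Gstm1 they were Polr3c (Pearson r = 0.949, Spearman rho = 0.939), Gpihbp1 (0.947 and 0.927) and Mrnip (0.947 and 0.939). For Gstp1 they were Rpl15 (0.996 and 0.964), Gabarap (0.983 and 0.988) and Dnajc19 (0.973 and 0.927). Among the other transferases, Gstm2 was followed by Penk (r = 0.954), Abhd11os (0.953) and Hadh (0.943), and Gstm5 by Napa (0.980), Sdhb (0.973) and Rpl36-ps12 (0.942). Gsta4 was followed by Stx5a (0.965), Exosc8 (0.934) and Haus7 (0.932), and Gstt1 by Kxd1 (0.952), Aldoa (0.945) and Ggact (0.942). Of the synthesis genes, Gclc was followed by Sirt5 (0.967), Brinp3 (0.967) and Taok1 (0.956), Gclm by Mapk10 (0.976), Zfp84 (0.958) and Smc1a (0.956), Gss by Ubxn11 (0.932), Fam171a1 (0.930) and Smim8 (0.921), and Gsr by Cdk18 (0.945), Cdk11b (0.898) and Zbtb46 (0.883). Of all the genes named here, Rpl36-ps12 had the lowest Spearman rho, 0.721, and Kxd1 the next, 0.818. The r values are the highest of many over 10 libraries that share their scaling, and they carry no test.

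Around these genes, 6 lists of the pathway held 4 genes past the threshold of 75 distinct genes tested (5.33%, against 2.04% of all genes). They lay on 4 different lists, 1 gene each. The other methods called more of all 18401 genes, which the list counts below share. DESeq2 called 516 higher and 406 lower and limma voom 439 and 342, against 234 and 142 in edgeR. Of 18 other glutathione transferases tested, 0 passed in either direction, at a median log2 fold change of 0.04; at an unadjusted p below 0.05 there were 2 higher and 1 lower, and at the adjusted threshold 1 lower in DESeq2 and 0 in limma voom. Hpgds, the prostaglandin D synthase of this family and the one of smallest p, had 0.454 to 1.01 CPM after oxaliplatin and 0.833 to 2.79 CPM after vehicle, at -1.10 ± 0.32 (SE; edgeR adjusted p = 0.0946, and 0.0301 in DESeq2). Of 4 tested exporters of glutathione conjugates 0 passed in edgeR, DESeq2 or limma voom and 0 had an unadjusted p below 0.05, with Abcc5 the one of smallest p at 0.12 ± 0.09 (edgeR adjusted p = 0.541).

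Of 12 peroxidases, glutaredoxins and glyoxalases, 1 fell and 0 rose, with 2 lower in DESeq2 and 1 in limma voom. Glo1, which uses glutathione to clear methylglyoxal, had 239, 250, 266, 252 and 247 CPM in oxaliplatin replicates 1 to 5, against 291, 271, 324, 294 and 292 CPM in vehicle replicates 1 to 5. All oxaliplatin libraries lay below all vehicle libraries. The Glo1 log2 fold change was -0.23 ± 0.06 (SE; edgeR adjusted p = 0.0447), and it passed in 2 of the 10 fits that left out 1 library, those without oxaliplatin replicate 3 (0.0458) or vehicle replicate 2 (0.0284), with a highest adjusted p of 0.119. The Glo1 call was also lost without a composition factor (edgeR adjusted p = 0.0621).

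Of 9 genes that supply NADPH, which Gsr consumes, 1 fell and 0 rose, with 3 lower in DESeq2 and 1 in limma voom. Idh1, the cytosolic isocitrate dehydrogenase, had 214, 248, 225, 226 and 223 CPM in oxaliplatin replicates 1 to 5 and 263, 275, 276, 265 and 262 CPM in vehicle replicates 1 to 5, without overlap. Its log2 fold change was -0.24 ± 0.05 (SE; edgeR adjusted p = 0.0282), and reached 0.0908 when 1 library was left out, with 4 of 10 such fits past the threshold, those without oxaliplatin replicate 2 or vehicle replicate 2, 3 or 5. The summed level of the 9 genes was 1441 to 1539 CPM after oxaliplatin and 1569 to 1757 CPM after vehicle. It did not overlap under scaling by library totals either, at 1466 to 1545 and 1552 to 1725 CPM. Of the 9 genes, 6 had a log2 fold change below 0 and 3 above. Tkt, Taldo1 and Idh1 were the most abundant, weigh most in the sum and all had a log2 fold change below 0. The sum was not recomputed without them, so its separation says nothing of the other genes on the list. Taldo1 was at 337 to 353 CPM after oxaliplatin and 357 to 476 CPM after vehicle (edgeR adjusted p = 0.0713). Nefl fell beside Glo1 and Idh1, at 2590 to 3542 CPM after oxaliplatin and 4014 to 4574 CPM after vehicle, while the neuron markers as a list had a median near 0. The part of neurons in these results was not tested.

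Of 16 tested genes of cysteine supply and glutathione breakdown, 1 rose and 0 fell; DESeq2 called 3 higher and 1 lower, limma voom called 3, all higher, and an unadjusted p below 0.05 was reached by 4 with positive and 3 with negative log2 fold changes. Dpep2, a membrane dipeptidase, had 1.23, 0.564, 1.66, 1.68 and 1.85 CPM in oxaliplatin replicates 1 to 5, against 0.344, 0.374, 0.626, 0.357 and 0.335 CPM in vehicle replicates 1 to 5. Oxaliplatin replicate 2 lay below vehicle replicate 3, and the other 4 lay above every vehicle library. The log2 fold change was 1.77 ± 0.33 (SE; edgeR adjusted p = 0.0133), and the call held whichever library was left out. Dpep1, a membrane dipeptidase that splits the cysteine-glycine left by glutathione breakdown, was named after its values were seen. It averaged 17.2 ± 7.64 CPM after oxaliplatin and 5.52 ± 1.23 CPM after vehicle (SD, n = 5 each; edgeR adjusted p = 0.0543, 0.000213 without oxaliplatin replicate 2, and 0.0709 to 0.134 without any other single library). Dpep1 also passed in DESeq2, in limma voom, without a composition factor and with the filter of 1 CPM in 5 libraries. It did not pass with the replicate number as a block. Cbs, which starts the making of cysteine from homocysteine, had 2.78, 0.752, 1.76, 3.05 and 2.55 CPM in oxaliplatin replicates 1 to 5, against 0.416, 0.168, 0.858, 0.782 and 1.06 CPM in vehicle replicates 1 to 5. All but oxaliplatin replicate 2 lay above every vehicle library, and Cbs did not pass the threshold (1.72 ± 0.45 on the log2 scale, SE; edgeR adjusted p = 0.0704, and 0.0021 in DESeq2, 0.0412 in limma voom and 0.0141 without oxaliplatin replicate 2). Ggt5, a gamma-glutamyl transferase that splits glutathione conjugates outside the cell, was at -0.70 ± 0.20 (edgeR adjusted p = 0.0749, 0.0147 in DESeq2, 0.0380 with no filter on low counts and 0.0385 without oxaliplatin replicate 3). Slc7a11, the cystine importer, was at 0.01 ± 0.14 on the log2 scale (edgeR adjusted p = 0.988).

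Of 17 genes for NRF2, its regulators and targets, 1 fell and 0 rose, at a median log2 fold change of -0.11, with 2 lower in DESeq2 and 1 in limma voom. Hmox1, haem oxygenase, had 59.2, 71.3, 54.1, 57.8 and 64.2 CPM in oxaliplatin replicates 1 to 5, against 69.1, 76.2, 75.8, 77.8 and 80.5 CPM in vehicle replicates 1 to 5. Oxaliplatin replicate 2 lay above vehicle replicate 1 and the other 4 lay below every vehicle library. Hmox1 stood at a log2 fold change of -0.31 ± 0.08 (SE; edgeR adjusted p = 0.0462), and it passed in 1 of 10 fits that left out a library, that without oxaliplatin replicate 2 (0.0136). The Hmox1 call was also lost without a composition factor (edgeR adjusted p = 0.0682). Nqo1, a quinone reductase often used as an NRF2 readout, was at 0.07 ± 0.11 (edgeR adjusted p = 0.813), and Nfe2l2, which codes for NRF2, at -0.20 ± 0.07 (edgeR adjusted p = 0.177).

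Of 10 macrophage markers tested, 0 rose and 2 fell (Cd74 and Cx3cr1); 3 were above 0 and 7 below, at a median of -0.27. Their sums were 114 to 153 CPM after oxaliplatin and 205 to 316 CPM after vehicle, and Cd74 carried most of that difference, at 24.1 to 47.9 CPM after oxaliplatin and 124 to 209 CPM after vehicle. Without Cd74 the sums overlapped, at 87.8 to 119 CPM after oxaliplatin and 78.5 to 137 CPM after vehicle. Cd74 was left out because it carries most of the difference, so that overlap is no test of macrophage content. Cx3cr1, a small part of that sum, did not overlap, at 0.668 to 1.49 CPM after oxaliplatin and 2.01 to 5.41 CPM after vehicle. Macrophages are known to express Hmox1 and Hpgds, and the part of these cells in either difference was not tested.

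**Figure D5:**
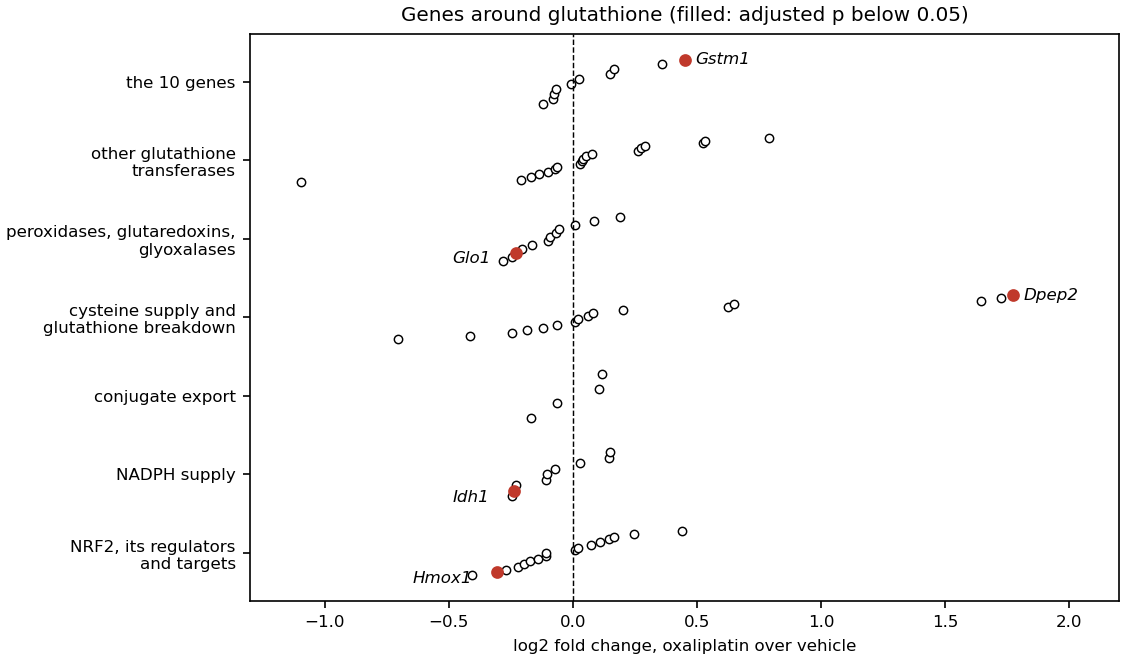
Log2 fold change of oxaliplatin over vehicle (x axis) for the 10 genes and every tested gene of 6 lists around glutathione (rows, 1 point per gene, sorted within a row). Filled and named points passed an adjusted p of 0.05: Gstm1 at 0.45, Glo1 at -0.23, Dpep2 at 1.77, Idh1 at -0.24 and Hmox1 at -0.31.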

How the data were processed

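Total RNA of 10 dorsal root ganglion samples was sequenced, 5 oxaliplatin and 5 vehicle, grouped by title. The labels' protocols name RNAlater storage and a Clontech SMARTer kit. The deposited values are raw read counts per Ensembl gene, 1 column per sample. STAR 2.5.1a, Partek and DESeq2 are named in the submitters' processing notes, with no role; the build, annotation, counting step and strand: not given in the sources used here. Of 40757 rows, 276 that repeated an ID with identical counts were dropped.

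Tests used edgeR 4.0.16 under R 4.3.3 (filterByExpr, TMM factors, robust quasi-likelihood fits, no covariates), with Benjamini-Hochberg adjustment over 18401 genes and a threshold of 0.05. CPM use TMM-scaled totals, log2 CPM a prior count of 2. SE is the log2 fold change over the root of F. The fit was tested on simulated data with 50 genes changed at each fold. It recovered 18% at 1.25-fold, 68% at 1.5-fold, 98% at 2-fold and 90% at 0.5-fold, and 12 of its 149 calls were false. Each of the 10 genes had at least 577 counts in every library; Gstm3 (28 to 60 counts), Dpep2 (18 to 111) and Hpgds (25 to 149) had few, and counting error is a larger part of their spread. The labels number the libraries m1 to m5 without stating separate animals, so p-values measure the spread between samples, which may be technical. Counts of replicates differed beyond sampling noise in all within-group pairs (chi-square divided by its degrees of freedom, 12.8 to 53.6). Exon lengths, shared stretches and gene order come from GENCODE M21.

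The genes and lists were chosen with earlier results of these data known. Named were the 10 genes; from each list the genes past the threshold, or else the 1 of smallest p; and the 3 genes closest to each member over libraries (mean of at least 2 CPM). The other genes of the Gstm cluster, Gstp2, Dpep1, Cbs, Ggt5, Slc7a11, Nqo1, Nfe2l2, Tkt, Taldo1 and the marker genes given with values were named after their values were seen. Alternatives were DESeq2 size factors, no composition factor, no filter or 1 CPM in 5 libraries, DESeq2 1.42.0, the replicate number as a block, limma 3.58.1 voom using quality weights, an adjusted p of 0.1, leaving out each library, and, chosen after seeing the data, leaving out oxaliplatin replicate 1 and vehicle replicate 5.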

Additional observations from a re-analysis of the deposited data

Results flagged for a closer look

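A sample far from the others of its group was found in 7 of 56 groups of 5 libraries checked (28 genes); chance gives about 1 in 20. Gstt1 stood at 45.01 CPM in vehicle replicate 3 and at 32.9 to 35.4 CPM in the other vehicle libraries. Dpep2 had 0.626 CPM in the same library, with its other vehicle libraries at 0.335 to 0.374 CPM. Gstm7 was lowest in vehicle replicate 2, at 9.901 CPM, where the remaining vehicle libraries held 13.1 to 14.2 CPM. Ggt5 was highest in oxaliplatin replicate 3, at 4.668 CPM against 2.85 to 3.36 CPM in its group, and in vehicle replicate 5, at 8.555 CPM against 4.398 to 5.11 CPM. Nqo1 was lowest in oxaliplatin replicate 2, at 16.26 CPM against 18.7 to 19.7 CPM, and highest in vehicle replicate 3, at 23.23 CPM against 15.3 to 17.2 CPM.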

How the results depend on the processing

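Of the 10 genes, 1 passed. That count was 0 with the replicate block and 0 without oxaliplatin replicate 1 and vehicle replicate 5, and it ranged from 0 to 2 when single libraries were left out. The 4 related genes that passed became 12 in DESeq2, 9 with the replicate block, 9 at an adjusted p of 0.1, 1 without oxaliplatin replicate 1 and vehicle replicate 5, and 1 to 6 when single libraries were left out. Over all genes 376 passed, against 922 in DESeq2, 781 in limma voom, 660 with the replicate block, 728 at an adjusted p of 0.1, 218 without that pair of libraries, and 113 to 594 when single libraries were left out. The block is a check only, since the labels do not say that the numbers mark pairs. Deviations from the group means gave r from -0.0379 to 0.212 in same-numbered pairs, over 0.1 in 2 of 5. Replicates 3, 5 and 1 had 0.212, 0.145 and 0.0917, each above every pair of unlike number (-0.147 to 0.0812). An effect shared by same-numbered libraries was not tested. With the block Gstm1 was at 0.44 (edgeR adjusted p = 0.0780). The log2 fold change of Gss changed sign without a composition factor (0.028) and ranged from -0.052 to 0.054 when single libraries were left out; Gsta4 ranged from -0.050 to 0.13 Gstm3 from -0.11 to 0.15 and Slc7a11 from -0.077 to 0.094 in those fits, and without that pair of libraries Slc7a11 was at -0.010 and Gstp2 at -0.022. The cause of these moves was not tested. Of 513 single values recomputed, 434 kept direction and side of the threshold, 48 lost a call, 14 gained one and 17 turned. The 513 and the 434 include 11 values of the Gstm1 to Gstm5 ratio, which is a description and carries no test. Without the same pair of libraries the Glo1 (0.125), Idh1 (0.0776) and Hmox1 (0.158) calls were lost by edgeR adjusted p, and the Dpep2 call held (0.0355).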
